A study of Mus musculus with 24 samples.

Results

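The comparison set Ly6C hi monocytes of Slc29a3-/- Tlr7-/- mice against those of wild-type (WT) mice, and its members were the 8 RNA libraries, of 24 in the series, that the sample labels assign to these 2 groups with the Ly6C high gate. Each group held 4 libraries. The mice were on the C57BL/6 background, and the mutant alleles had been made by CRISPR/Cas9 in zygotes. The Slc29a3 allele carries an inserted stop codon in an early exon, and the Tlr7 allele a short deletion in its last exon. Both were present in the double-mutant group, whereas the WT group carried neither and consisted of purchased C57BL/6 mice. Neither group was treated. The third genotype, Slc29a3-/- alone, entered the model for the estimate of spread and is given only where a value for the double mutant needs it. Splenocytes were depleted of T, B, NK, neutrophil and erythroid cells with magnetic beads and then sorted as CD11b+ cells without Ly6G or NK1.1, with high Ly6C and, in the study's methods, with low Fcgr4. The labels also give the cells as SiglecF negative. The labels call these cells macrophages. They give neither the age nor the sex of the mice and do not say whether each library came from a separate mouse, so that a p-value below measures the spread between these libraries, which may be technical.

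SLC29A3 is a transporter that carries nucleosides out of the lysosome, and TLR7 is an endosomal receptor that senses guanosine-like nucleosides together with short RNA fragments. Ly6C hi monocytes leave the bone marrow, carry CCR2, and can mature into Ly6C low monocytes, which depend on Nr4a1 and carry CX3CR1 and FcγRIV. Comparing the double mutant with WT asks what remains altered in monocytes without the transporter when the receptor is missing too.

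Values were reads per 1000000 reads (RPM) of 1 amplicon per gene, and the 8 libraries held between 12311037 and 14415814 reads, as read from the even steps between low values. At these depths, a value of 0 allows a level of up to 0.208 to 0.244 RPM (3 reads, counting error only). Log2 fold changes are those of log2(RPM + 1), which understates the change of low genes, and are given with their standard error (SE) from limma. A gene was called when its fold change exceeded 1.5 and its unadjusted p was under 0.05, and adjusted p-values are Benjamini-Hochberg values of the limma fit over 10561 genes.

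The 4 WT libraries fell into 2 kinds. WT replicates 1, 2 and 3 (barcodes 14, 15 and 16) lay close together, with Euclidean distances on the log2 scale of 23.1 to 24.3 over all genes tested, and WT replicate 4 (barcode 29) lay 63.7 to 64.7 from them. The Slc29a3-/- Tlr7-/- libraries (barcodes 37 to 40) were 60.8 to 84.2 apart from one another, 46.2 to 79.5 from WT replicate 4, and 58.5 to 94.6 from WT replicates 1 to 3. In read counts, where counting noise alone gives a chi-square per gene of about 1, it was 6.17 to 8.75 between WT replicates 1 to 3, 82.2 to 86.1 between these and WT replicate 4, and 47.3 to 112 between mutant libraries. WT replicates 1 to 3 were kept as 3 samples as the labels give them, but repeat libraries of 1 RNA would also exceed counting noise, so their values do not show separate sources. Between them and WT replicate 4, 1109 genes differed by more than 1.5-fold with an unadjusted p under 0.05. Counts and changes below are therefore given with all WT libraries and, for those the account turns on, also against WT replicate 4 alone, whose value stands second where 2 log2 fold changes are set side by side.

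The 2 kinds of WT library also differed in sex-linked transcripts. Xist, the RNA that coats the inactive X chromosome, stood at 563, 554 and 612 RPM in WT replicates 1 to 3 and at 0 RPM in WT replicate 4. The Y-linked gene Ddx3y was at 0, 0 and 0 RPM in the first 3 and at 97.0 RPM in the last. Among the Slc29a3-/- Tlr7-/- libraries, Xist was at 0.154, 299, 109 and 562 RPM and Ddx3y at 106, 70.2, 85.0 and 0 RPM in replicates 1 to 4. Replicates 2 and 3 thus held transcripts of both kinds, replicate 1 was like WT replicate 4 and replicate 4 like WT replicates 1 to 3. The part of sex in the differences between the groups was not tested.

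Monocyte identity was read from lists of marker genes, which include CD11b and FcγRIV, proteins that the sort itself used. Csf1r, the receptor for M-CSF, was at 783, 743, 812 and 989 RPM in WT replicates 1 to 4 and at 1337, 1739, 1347 and 1448 RPM in the 4 Slc29a3-/- Tlr7-/- libraries. The groups did not overlap, and the log2 fold change was 0.82 ± 0.24 (SE; adjusted p = 0.078 by limma) with all WT libraries and 0.56 against WT replicate 4. Lyz2, the lysozyme of myeloid cells, was also above every WT library, at 32814 to 58179 RPM in the mutant against 24348 to 29513 RPM, a log2 fold change of 0.78 ± 0.24, and 0.58 against WT replicate 4. Ccr2, the receptor that brings these cells out of the marrow, varied in both groups, from 323 to 1783 RPM in WT and from 132 to 1211 RPM in the mutant, with its highest value in WT replicate 4. For Ccr2 the log2 fold change was -0.09 ± 0.61 with all WT libraries and -1.79 against WT replicate 4. Of 16 markers of Ly6C hi monocytes tested, 2 were called higher and 1 lower, and of 13 markers of Ly6C low monocytes, none was called. The summed Ly6C hi list was at 35411 to 46115 RPM in WT and 45290 to 74375 RPM in the mutant, but Lyz2 alone made up most of it. Without Lyz2, the list summed to 11038 to 16602 RPM in WT and 12475 to 16602 RPM in the mutant, and each of the 16 markers was above the level that 0 reads allow in all 8 libraries.

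The levels of the targeted genes check neither mutation, because both alleles can still be transcribed and where the amplicons lie is not given in the sources used here. Slc29a3 (chr10:60712072-60752849, mm10) was at 168, 163, 198 and 225 RPM in WT and 208, 413, 273 and 194 RPM in the mutant, and Tlr7, on the X chromosome, at 263, 253, 209.8 and 336 RPM and 322, 259, 345 and 343 RPM. Both overlapped between the groups and neither was called. Within 500 kb of Slc29a3, 5 genes of 13 on the panel were tested, itself included, and within 500 kb of Tlr7, 5 of 10, and none of them was called. Prps2, a phosphoribosyl pyrophosphate synthetase gene beside Tlr7, was nonetheless below every WT library, at 25.6 to 37.2 against 40.1 to 45.7 RPM, a log2 fold change of -0.40 ± 0.15 that is under 1.5-fold.

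Across all genes, more were called lower than higher in the double mutant, and fewer were called in both directions against WT replicate 4 alone. Of 10561 genes, 329 were called higher (3.12%) and 997 lower (9.44%). With an adjusted p under 0.05 in place of the unadjusted one, 33 (0.312%) and 117 (1.11%) passed. The 4 mutant values lay above all 4 WT values for 576 genes (5.45%) and below them for 667 (6.32%). Against WT replicate 4 alone, 128 genes were called higher (1.21%) and 240 lower (2.27%), and none reached an adjusted p under 0.05, although 477 had an unadjusted p under 0.05 at any fold.

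Of the 329 genes called higher, 301 kept their sign against WT replicate 4 and 75 (22.8%) were still more than 1.5-fold higher. Of the 997 called lower, 841 kept their sign and 374 (37.5%) their fold. The median log2 fold change of the called genes went from 0.73 to 0.41 for the higher and from -0.88 to -0.42 for the lower ones, where that of all genes was -0.06 and -0.05. In the plot of called genes, most immediate early genes moved to or above 0, and the heat shock genes lay further up against WT replicate 4.

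**Figure D1:**
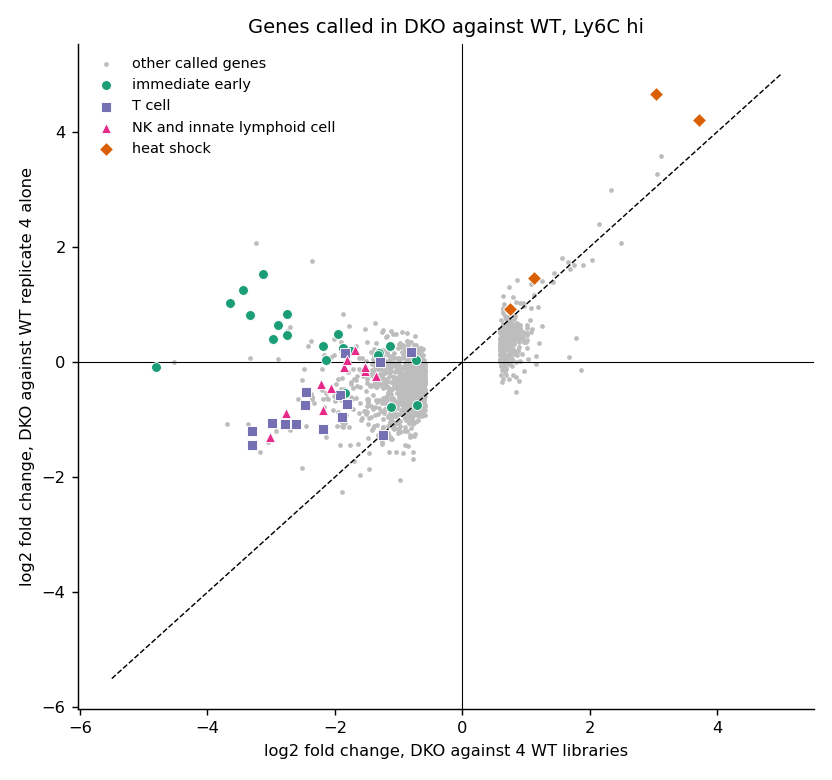
Each point is 1 of the 1326 genes called in Slc29a3-/- Tlr7-/- (DKO) against WT Ly6C hi monocytes, with its log2 fold change against the 4 WT libraries on the x axis and against WT replicate 4 alone on the y axis. The dashed line marks equal values. The immediate early genes reach -4.81 on the x axis and lie between -0.78 and 1.53 on the y axis, whereas the 4 heat shock genes lie above the dashed line.

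The lists of genes with a common role or cell type give the same division. All counts of list members called, above and below, are to be read beside 3.12% of all genes called higher and 9.44% called lower. The median of the T cell list was -2.19 with all WT libraries and -0.96 against WT replicate 4, that of the immediate early list -1.79 and 0.30, and that of the NK cell list -1.71 and -0.20. The median of the plasma cell list was -1.10 and -0.74, and that of the MHC class II list 0.48 and 0.43.

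**Figure D2:**
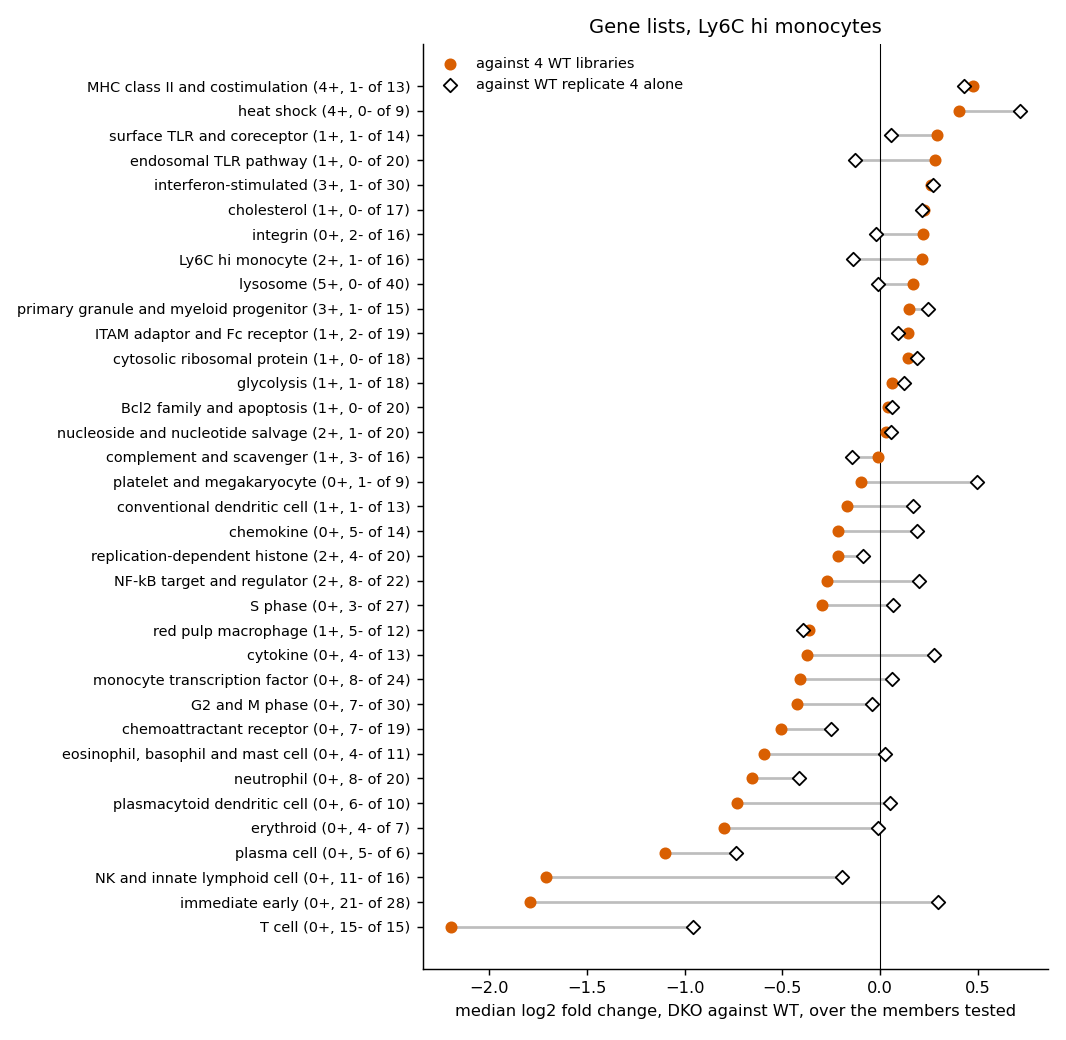
Median log2 fold change of DKO (Slc29a3-/- Tlr7-/-) against WT Ly6C hi monocytes over the tested members of each gene list, against the 4 WT libraries (filled circles) and against WT replicate 4 alone (open diamonds). After each name stand the numbers called higher (+) and lower (-) and the number tested. The immediate early, NK and T cell lists have the longest lines between the 2 values, and those of the red pulp macrophage and MHC class II lists are short.

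The immediate early genes, which cells switch on within minutes of a stimulus or of handling, included some of the largest losses with all WT libraries. Of 28 tested, 21 were called lower and none higher, beside 9.44% of all genes, and 2 of the 21, Fosl2 and Ier2, were more than 1.5-fold lower than WT replicate 4 (-0.75 and -0.78). Fos, a subunit of AP-1, was at 3572, 4128 and 3879 RPM in WT replicates 1 to 3, at 145 RPM in WT replicate 4 and at 112, 279.9, 166 and 520.1 RPM in the 4 mutant libraries. WT replicate 4 thus lay among the mutant libraries, and the log2 fold change of -2.89 ± 0.83 (adjusted p = 0.075 by limma) became 0.65 against it. Fosb, another AP-1 subunit, fell by more than any other gene named here, at -4.81 ± 1.04 (adjusted p = 0.043 by limma), and was at 3.43 RPM in WT replicate 4 and 2.14 to 5.37 RPM in the mutant. WT replicate 4 changed the value in the same way for Jun (-3.13 and 1.53 against WT replicate 4), for the growth response factor Egr1 (-3.44 and 1.25), for the MAP kinase phosphatase Dusp1 (-3.33 and 0.82) and for Rgs1, a regulator of G protein signalling (-3.64 and 1.03). Nr4a1, which Ly6C low monocytes need, was not called. It was at 1804, 1797 and 1765 RPM in WT replicates 1 to 3, 409 RPM in WT replicate 4 and 703, 637, 528 and 1492 RPM in the mutant.

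NF-κB targets and regulators followed the same libraries. Of 22 tested, 8 were called lower and 2 higher, beside 9.44% and 3.12% of all genes. None of these 10 was more than 1.5-fold changed the same way against WT replicate 4. Tnfaip3, which encodes the inhibitor A20, was at 280.3, 342 and 268 RPM in WT replicates 1 to 3, 37.6 RPM in WT replicate 4 and 35.04, 8.45, 56.9 and 46.6 RPM in the mutant. Its log2 fold change was -2.52 ± 0.62 with all WT libraries and -0.31 against WT replicate 4. Nfkbia, the inhibitor IκBα, gave -1.18 and 0.17, Nfkbiz -2.02 and 0.12, and the kinase gene Pim1 -2.20 and -0.12. Icam1, an adhesion molecule, was 1 of the 2 called higher, at 58.0, 55.6, 58.0 and 78.1 RPM in WT and 80.6, 116, 124 and 118 RPM in the mutant, with no overlap and a log2 fold change of 0.79 ± 0.23 against all WT libraries and 0.46 against WT replicate 4.

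The chemokine and cytokine genes that were called lower were those high in WT replicates 1 to 3. Of 14 chemokine genes tested, 5 were called lower and none higher, and of 13 cytokine genes 4 and none, and none of these 9 kept a 1.5-fold loss against WT replicate 4. Ccl2, which draws monocytes through CCR2, was at 232, 224 and 242 RPM in WT replicates 1 to 3, 2.57 RPM in WT replicate 4 and 4.39, 2.60, 2.14 and 1.68 RPM in the mutant. Ccl3, an inflammatory chemokine, was at 1004, 999 and 947, 6.32 and 15.6, 21.0, 17.2 and 134 RPM in the same order. For Ccl3 the sign turned, from -3.23 ± 1.24 to 2.07, and its fall was not called once any 1 of WT replicates 1 to 3 was left out. Osm, a cytokine of the IL-6 family, gave -2.71 and 0.60, and Ifng, the interferon of T and NK cells, -2.42 and 0.28. Il1b overlapped between the groups (108 to 228 and 73.9 to 421 RPM) and was not called. Of 19 chemoattractant receptor genes, 7 were called lower and 3 of these kept their fold, among them S1pr1, the receptor by which lymphocytes leave tissues (-2.45 and -1.12). The coreceptor gene Cd14 was called lower (-1.35 ± 0.48) and gave 0.32 against WT replicate 4.

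Transcripts of T cells, which the bead depletion should remove, were lower in every tested gene of the list. All 15 were called lower, 7 of them also with an adjusted p under 0.05, and 10 were more than 1.5-fold lower than WT replicate 4. The sum over the 18 genes on the panel was 561 to 591 RPM in WT replicates 1 to 3, 132 RPM in WT replicate 4 and 44.3 to 256 RPM in the mutant. Cd3g, a chain of the T cell receptor complex, was at 30.04, 31.2, 28.4 and 4.52 RPM in WT replicates 1 to 4 and 5.08, 0.244, 0 and 1.28 RPM in the mutant, a log2 fold change of -3.30 ± 0.60 (adjusted p = 0.034, limma) and of -1.44 against WT replicate 4. Cd3e gave -2.98 ± 0.68 and -1.06, and Thy1 -3.30 ± 0.69 and -1.21. In all 3 genes mutant replicate 1 was above WT replicate 4, at 5.08 RPM of Cd3g, 11.1 RPM of Cd3e and 30.6 RPM of Thy1. Il7r, the receptor for IL-7, and Cd28, a costimulatory receptor, were below every WT library, at 0.325 to 7.86 and 1.203 to 6.09 RPM against 9.36 to 53.4 and 7.80 to 24.5 RPM. In sorted bulk RNA, fewer cells of a type and less RNA per cell cannot be told apart.

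NK cell transcripts were low in mutant replicates 2 to 4 and not in replicate 1. Of 16 tested, 11 were called lower, none with an adjusted p under 0.05, and 3 kept a 1.5-fold loss against WT replicate 4. Gzma, a granzyme, was at 203, 193 and 179 RPM in WT replicates 1 to 3, 54.2 RPM in WT replicate 4 and 325, 4.14, 10.6 and 46.9 RPM in mutant replicates 1 to 4. Klrb1c, which encodes NK1.1, the marker against which the cells were sorted, was at 144, 136, 128 and 26.99 RPM in WT and 174, 0.406, 3.48 and 14.2 RPM in the mutant. Mutant replicate 1 was the highest of all 8 libraries for both. The summed NK list ranged from 98.6 to 1632 RPM among the mutant libraries and was 1395 to 1477 RPM in WT replicates 1 to 3 and 311 RPM in WT replicate 4. Without mutant replicate 1, all 16 genes were called lower, and without mutant replicate 2, 4 were.

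Most plasma cell transcripts were lower in the double mutant. Of 6 tested, 5 were called lower and 4 kept a 1.5-fold loss against WT replicate 4. Mzb1, a chaperone of immunoglobulin assembly, was at 39.1, 30.4, 33.5 and 27.9 RPM in WT and 7.32, 15.7, 6.97 and 11.3 RPM in the mutant, with no overlap. Its log2 fold change was -1.63 ± 0.34 (adjusted p = 0.039 by limma) and -1.42 against WT replicate 4. Pou2af1, a coactivator of B lineage cells that was named for its change and not from this list, was at 85.3, 74.4, 64.7 and 39.2 and 9.78, 7.63, 5.31 and 25.98 RPM, also without overlap, and gave -2.52 ± 0.43 (adjusted p = 0.034, limma) and -1.84. Jchain, the joining chain of secreted immunoglobulin, was called lower (-1.34 ± 0.42, and -1.09 against WT replicate 4), but mutant replicate 4 with 536 RPM lay among the WT values of 471 to 627 RPM. Sdc1 (-1.27 and -0.85) and the repressor gene Prdm1 (-0.93 and -0.63) were below every WT library. None of 4 B cell genes tested was called.

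**Figure D3:**
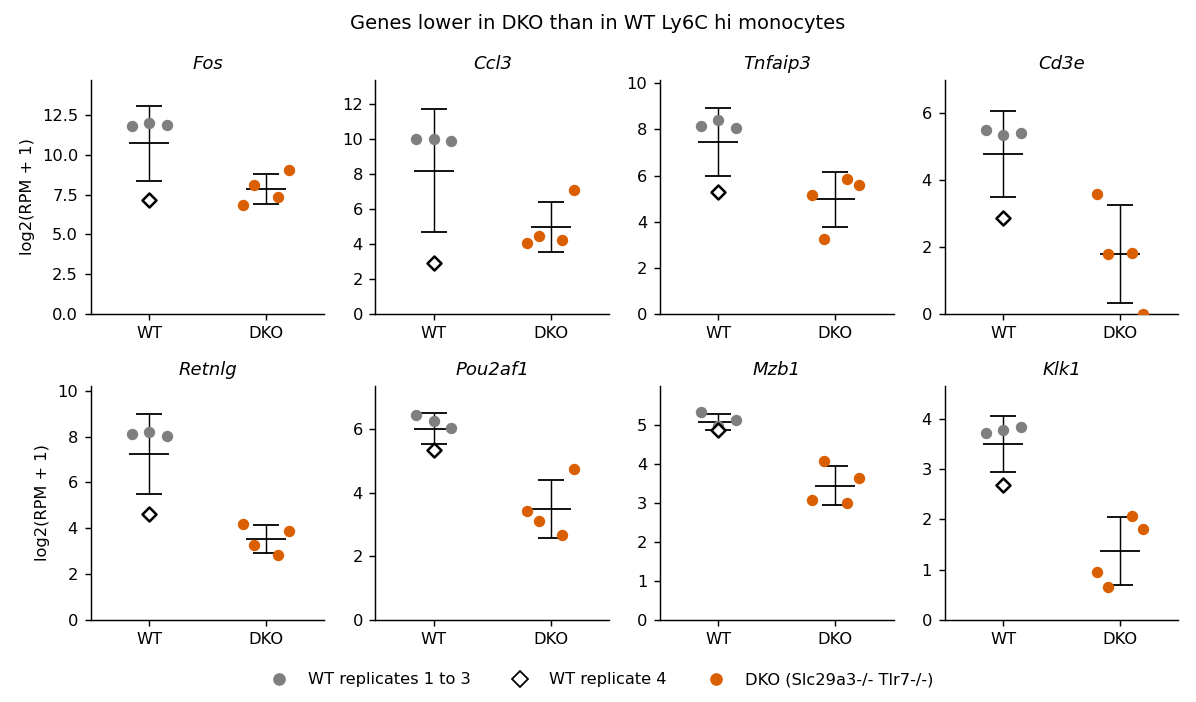
Levels of 8 genes called lower in DKO (Slc29a3-/- Tlr7-/-) than in WT Ly6C hi monocytes, as log2(RPM + 1) on axes that start at 0. Points are single libraries, and bars give the mean and SD of the 4 libraries of a group. WT replicate 4 lies within the range of the mutant libraries or below it for Fos, Ccl3, Tnfaip3 and Cd3e, and above all 4 mutant libraries for Retnlg, Pou2af1, Mzb1 and Klk1.

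Granulocyte transcripts fell in part. Of 20 neutrophil genes tested, 8 were called lower and 6 kept a 1.5-fold loss against WT replicate 4. Retnlg, a resistin-like protein of neutrophils, was at 274, 289.5 and 261 RPM in WT replicates 1 to 3, 23.5 RPM in WT replicate 4 and 16.9, 8.53, 6.18 and 13.9 RPM in the mutant. Every mutant value was below every WT value, and the log2 fold change was -3.69 ± 0.63 (adjusted p = 0.034 by limma), of which -1.07 was left against WT replicate 4. The gelatinase gene Mmp9 (-3.17 and -1.57, with overlap) and the decoy receptor gene Il1r2 (-1.84 and -0.72, without) were also called. S100a8, abundant in neutrophils and in Ly6C hi monocytes alike, was not called, and ranged from 587 to 5876 RPM among the mutant libraries. Of 11 genes of eosinophils, basophils and mast cells, 4 were called lower and 3 kept a 1.5-fold loss against WT replicate 4. The median of this list was -0.59 with all WT libraries and 0.02 against WT replicate 4. Prg2, the major basic protein of eosinophil granules, was at 85.8, 95.5, 87.7 and 9.91 RPM in WT and 1.31, 6.09, 4.04 and 7.62 RPM in the mutant. Ccr3, the eotaxin receptor, was at 5.62, 5.83, 4.90 and 5.54 and 3.23, 0, 1.03 and 0.802 RPM, with WT replicate 4 level with the other WT libraries (-1.70 and -1.72), and Alox15, a lipoxygenase of eosinophils and macrophages, gave -2.57 and -0.65.

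Plasmacytoid dendritic cell genes were mixed. Of 10 tested, 6 were called lower, and 2 kept their fold against WT replicate 4. Klk1, a kallikrein used as a marker of these cells, was at 12.2, 12.7, 13.3 and 5.38 RPM in WT and 0.924, 0.569, 3.17 and 2.49 RPM in the mutant, a log2 fold change of -2.14 ± 0.34 (adjusted p = 0.034 by limma) and -1.31. Ccr9, a chemokine receptor of the same cells, gave -1.15 and -1.56. The lectin gene Siglech, their best known marker, was at 41.9, 43.02 and 38.5 RPM in WT replicates 1 to 3, 13.7 RPM in WT replicate 4 and 18.5, 17.7, 17.7 and 16.4 RPM in the mutant, so its call (-0.80) turned to 0.34. Of 12 red pulp macrophage genes, 5 were called lower and 1 higher. Cd163, the haemoglobin scavenger receptor, was at 14.2, 12.1, 9.94 and 11.2 RPM in WT and 2.93, 3.82, 6.42 and 3.77 RPM in the mutant (-1.33 ± 0.29, and -1.27 against WT replicate 4), while Hmox1, which degrades haem, was the one called higher (0.90), a call lost at 0.48 without mutant replicate 4. Cd5l, a macrophage-secreted survival protein of the same list, gave -1.92 and -1.44. Of 7 erythroid genes, 4 were called lower and 2 kept a 1.5-fold loss against WT replicate 4. The median of the erythroid list was -0.80 with all WT libraries and -0.01 against WT replicate 4. Among the 2 was the anion exchanger gene Slc4a1, at 2.22, 2.15, 2.45 and 1.25 RPM in WT and 0.308, 0, 0 and 0 RPM in the mutant. Of 9 platelet genes 1 was called lower, a share near the 9.44% of all genes. Of the 12 lists of other cell types, 10 were higher in sum in each of WT replicates 1 to 3 than in WT replicate 4, and the plasma cell and red pulp macrophage lists were not. The sum of the neutrophil list was 32908 to 35256 RPM in WT replicates 1 to 3, 26139 RPM in WT replicate 4 and 14575 to 42210 RPM in the mutant, and that of the plasmacytoid dendritic cell list 447 to 468, 288 and 325 to 396 RPM. The part of these other cells in the lower genes was not tested.

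Some of the genes below every WT library belong to none of these lists. Lipg, which encodes endothelial lipase, was at 16.1, 15.8, 11.1 and 20.4 RPM in WT and 8.16, 1.62, 1.43 and 5.93 RPM in the mutant. Its loss was greater against WT replicate 4 (-2.26) than against all WT libraries (-1.88 ± 0.45). In Slc29a3-/- libraries it stood at 28.2 ± 16.3 RPM (mean ± SD, n = 4), so the double mutant was also lower than the single mutant, with a log2 fold change of -2.52 (adjusted p = 0.0015 by limma). Id1, an inhibitor of basic helix-loop-helix factors, was at 85.7, 82.7, 82.7 and 15.9 RPM in WT and 15.6, 3.90, 11.3 and 13.5 RPM in the mutant, and Plk3, a stress-responsive polo-like kinase, at 25.6, 22.1, 24.4 and 5.23 and 2.39, 2.52, 2.93 and 4.73 RPM. For both, WT replicate 4 lay just above the highest mutant library. Vaultrc5, a small RNA of the vault particle, was below every WT library too (-1.96 and -1.10).

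The inducible HSP70 genes and 2 further heat shock genes were higher in the double mutant. Of 9 tested, 4 were called higher, beside 3.12% of all genes, and all 4 also against WT replicate 4. None had an adjusted p under 0.05. Hspa1b, an inducible HSP70, was at 8.95, 11.8, 9.38 and 6.01 RPM in WT replicates 1 to 4 and 17.5, 74.6, 229 and 869 RPM in mutant replicates 1 to 4. Hspa1a, its near-identical neighbour, was at 25.6, 22.2, 22.5 and 4.45 RPM and 12.5, 244, 119.9 and 889 RPM, and the 2 should be read together because reads of such copies can be assigned to either. Every mutant library exceeded every WT library for Hspa1b, but the mutant libraries themselves differed widely, with replicate 4 the highest and replicate 1 the lowest for both genes, and for Hspa1a replicate 1 lay among the WT values. The log2 fold changes were 3.72 ± 0.92 (adjusted p = 0.058) and 3.03 ± 0.97 (adjusted p = 0.095) in limma, and 4.21 and 4.66 against WT replicate 4. Hsph1, an HSP110 that works with HSP70, was at 118, 117, 122 and 86.5 and 152, 207, 211 and 499.9 RPM (1.12 ± 0.39, and 1.46). Hsp90ab1, the abundant cytosolic HSP90, was above every WT library with a smaller spread, at 1986, 1820.2, 1961 and 1639 and 2565, 3931, 2670.4 and 3468 RPM (0.75 ± 0.22, and 0.92). Dnajb1, the HSP40 partner of HSP70, was not called, at 95.8, 96.2, 104 and 57.9 and 64.3, 92.1, 76.4 and 185 RPM.

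The promoters of 3 of the 4 heat shock genes called higher are shown because heat shock factor binds inverted repeats of nGAAn. Whether that factor acted on them in these cells was not tested. Each line gives the 120 bases before the annotated start of the gene, from RefSeq on GRCm38.p6, 5′ to 3′ on the coding strand, with a pair of such units, GAANNTTC or TTCNNGAA, in capitals.
Hspa1a (chr17:34972157-34972276, minus strand): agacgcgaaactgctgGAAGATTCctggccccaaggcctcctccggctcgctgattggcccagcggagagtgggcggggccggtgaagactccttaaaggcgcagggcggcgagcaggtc
Hspa1b (chr17:34959239-34959358, minus strand): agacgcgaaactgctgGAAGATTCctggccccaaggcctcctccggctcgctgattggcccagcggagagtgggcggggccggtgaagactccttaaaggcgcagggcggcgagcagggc
Hsph1 (chr5:149636337-149636456, minus strand): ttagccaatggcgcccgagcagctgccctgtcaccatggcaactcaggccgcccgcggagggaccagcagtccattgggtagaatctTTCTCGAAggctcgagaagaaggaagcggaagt
The stretches of Hspa1a and Hspa1b share 119 of 120 bases. Both motifs are their own reverse complement, so 1 search covers both strands. Within the 250 bases before the start, 12.9% of 27025 promoters hold at least 1 of them, and 4 of the 8 heat shock genes with a RefSeq promoter do, among them Hspa1a and Hspa1b at 104 bases and Hsph1 at 33 bases before the start. A match of these letters is a description of the sequence and not a measured site.

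In 3 further genes the mutant libraries were all above WT but differed widely among themselves. AY761185, a defensin-like gene on chromosome 8, was at 5.69, 5.34, 3.15 and 2.65 RPM in WT and 7.39, 67.7, 54.3 and 111 RPM in the mutant. It rose by 3.11 ± 0.58 on the log2 scale (adjusted p = 0.034 by limma) and by 3.57 against WT replicate 4. LOC105247310, a long noncoding RNA on chromosome 6, was at 0.763, 0.555, 1.4 and 0.546 RPM in WT and 2.23, 25.3, 14.8 and 34.96 RPM in the mutant, and Spata25, a testis-associated gene on chromosome 2, at 2.36, 2.98, 2.52 and 3.59 and 5.62, 19.2, 15.05 and 27.3 RPM. These 3 had the same order of the mutant libraries, with replicate 4 the highest and replicate 1 the lowest. In Slc29a3-/- libraries, AY761185 stood at 14.7 ± 4.98 RPM, between the other 2 genotypes, and the log2 fold change of the double against the single mutant was 1.53 (adjusted p = 0.076 by limma), which missed an adjusted p of 0.05.

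Cndp2 and 1700112E06Rik were also higher in all 4 mutant libraries than in every WT library. Cndp2, a cytosolic dipeptidase on chromosome 18, was at 53.1, 63.6, 62.9 and 72.3 RPM in WT and 174, 276, 232 and 274 RPM in the mutant. Its log2 fold change was 1.89 ± 0.39 (adjusted p = 0.038 by limma) with all WT libraries and 1.69 against WT replicate 4, and 1.69 (adjusted p = 0.007) against Slc29a3-/- libraries, which varied (89.6 ± 67.2 RPM). 1700112E06Rik, a protein-coding gene on chromosome 14 now named Lrmda, was at 0.555, 0.902, 1.12 and 1.72 RPM in WT and 11.8, 5.77, 9.50 and 17.9 RPM in the mutant (2.49 ± 0.28, adjusted p = 0.0027 by limma, and 2.08 against WT replicate 4). In Slc29a3-/- libraries it was at 14.1 ± 0.927 RPM, and a difference of the double mutant from these was not shown (-0.40, adjusted p = 0.34). Rgl2, an exchange factor for Ral, gave 1.12 and 1.17, and the methyltransferase-like gene Mettl7a1 1.02 and 0.65. Primpol, a primase-polymerase that restarts stalled forks, and the phosphatase gene Dusp22 were also above every WT library with 1.06 and 1.08, and 0.74 and 0.94 against WT replicate 4.

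The genes of the class II molecule itself were higher in the double mutant. Of 13 genes of antigen presentation and costimulation tested, 4 were called higher and 1 lower, beside 3.12% and 9.44% of all genes. Of the 4, 2 kept a 1.5-fold gain against WT replicate 4. H2-Ab1, the β chain of I-A, was at 163, 173, 182 and 306 RPM in WT and 517, 378, 445 and 581 RPM in the mutant, which is a log2 fold change of 1.25 ± 0.24 (adjusted p = 0.038 by limma) and of 0.63 against WT replicate 4. H2-Aa, the α chain, was at 497, 465, 511 and 525 and 1057, 732, 627 and 944 RPM (0.72 ± 0.19, and 0.65), and Cd74, the invariant chain, at 3639, 3771, 3459.8 and 4269 and 7162, 6053, 4720.4 and 6169 RPM (0.66 ± 0.19, and 0.48). For these 3 genes no mutant library overlapped a WT library. For Ciita, the transactivator of the class II genes, WT replicate 4 at 181 RPM was within the mutant range of 122 to 233 RPM, and 0.79 with all WT libraries turned to -0.22. Dendritic cells also carry class II at high levels. Of 13 conventional dendritic cell genes tested, 1 was called higher and 1 lower, and the list summed to 476 to 512 RPM in WT replicates 1 to 3, 406 RPM in WT replicate 4 and 332 to 522 RPM in the mutant.

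**Figure D4:**
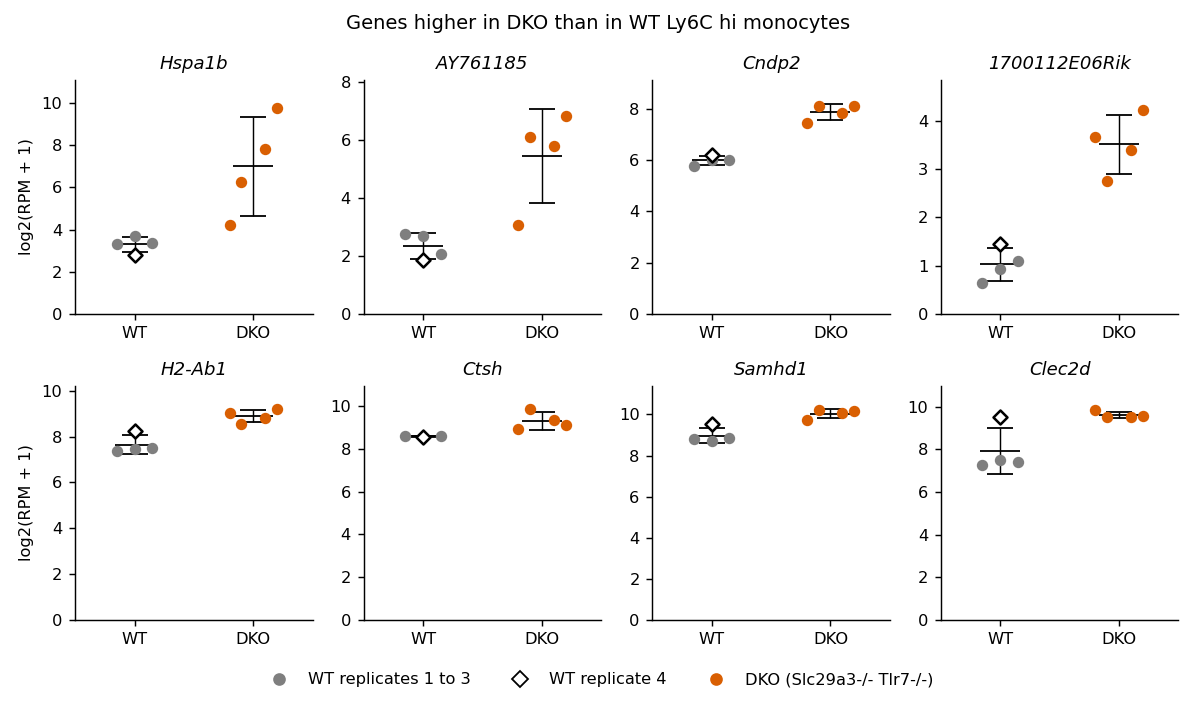
Levels of 8 genes called higher in DKO (Slc29a3-/- Tlr7-/-) than in WT Ly6C hi monocytes, as log2(RPM + 1) on axes that start at 0. Points are single libraries, and bars give the mean and SD of the 4 libraries of a group. Hspa1b and AY761185 differ widely between mutant libraries, Cndp2 and 1700112E06Rik are above all WT libraries, and for Clec2d WT replicate 4 lies level with the mutant.

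A few lysosomal genes were higher. Of 40 tested, 5 were called higher and none lower, beside 3.12% and 9.44% of all genes. The median of the list was 0.17 with all WT libraries and -0.01 against WT replicate 4. Ctsh, the aminopeptidase cathepsin H, was at 382, 372, 392 and 380.1 RPM in WT and 487, 942, 652 and 545 RPM in the mutant (0.74 ± 0.20, and 0.74 against WT replicate 4). Without mutant replicate 2 its log2 fold change was 0.55, under the 1.5-fold limit. Ctss, the cathepsin that trims the invariant chain, was at 1465, 1314, 1538 and 1779 and 2271, 2711, 2625 and 2149.6 RPM (0.68 and 0.45), and Tfe3, a transcription factor of lysosomal genes, at 39.3, 36.4, 43.8 and 48.5 and 56.4, 98.4, 73.2 and 75.7 RPM (0.82 and 0.61). Lamp1 (0.31 ± 0.15) and Ctsd (-0.51 ± 0.20) were not called. In the list of 20 nucleoside and nucleotide salvage genes, of which 2 were called higher and 1 lower, Samhd1, which breaks down deoxynucleotides, was above every WT library, at 442, 413, 465 and 732 RPM in WT and 839, 1202, 1065 and 1144 RPM in the mutant. It rose by 1.08 ± 0.27 (adjusted p = 0.058 by limma) and by 0.52 against WT replicate 4.

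Interferon-stimulated genes were mostly not called. Of 30 tested, 3 were called higher and 1 lower, beside 3.12% and 9.44% of all genes, and the median was 0.26 and 0.27. Stat2, which carries the type I interferon signal, was at 91.5, 81.2, 97.3 and 139 RPM in WT and 221, 171, 217 and 185 RPM in the mutant (0.97 ± 0.19, adjusted p = 0.038 by limma, and 0.50 against WT replicate 4). Ifit1, which binds foreign RNA caps, was at 31.7, 33.9, 29.3 and 41.5 and 69.3, 57.2, 57.3 and 59.1 RPM (0.82 and 0.53), and Ifi204, a nucleic acid sensor, at 55.8, 69.7, 63.8 and 62.9 and 83.0, 164, 147 and 119 RPM (0.97 and 0.97). The 3 genes did not overlap between the groups. Casp9, the initiator caspase of the mitochondrial pathway, was the only one of 20 genes of cell death called, at 7.98, 7.63, 7.98 and 12.2 and 17.3, 21.3, 19.6 and 17.6 RPM (1.02 ± 0.19, adjusted p = 0.035 by limma, and 0.58).

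Some genes called higher were high in WT replicate 4 as well. Clec2d, a C-type lectin that NK receptors bind, was at 155, 177 and 169 RPM in WT replicates 1 to 3, 731 RPM in WT replicate 4 and 905, 729.7, 734 and 746 RPM in the mutant. The log2 fold change of 1.68 ± 0.38 (adjusted p = 0.047, limma) was 0.09 against WT replicate 4. F630028O10Rik, a noncoding RNA on the X chromosome, went from 1.87 to -0.14, D730005E14Rik from 1.78 to 0.42, and Taf2, a subunit of TFIID, from 1.16 to 0.11. In Slc29a3-/- libraries Clec2d was at 618 ± 163 RPM, near WT replicate 4 and not near WT replicates 1 to 3.

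Few genes of the pathway that the mutations address were called. None of 4 nucleoside transporter genes tested was called, with a list median of 0.29 and, against WT replicate 4, 0.08, and Slc29a1, the transporter of the plasma membrane, at 8.67 to 11.4 RPM in WT and 10.4 to 17.9 RPM in the mutant. Of 20 genes of endosomal TLR signalling, only Tlr13 was called, at 47.1, 44.8, 45.5 and 142 RPM in WT and 146, 68.0, 174 and 94.1 RPM in the mutant, and against WT replicate 4 its 0.88 became -0.33. Tlr8, the neighbour of Tlr7, was at 101, 98.5, 94.0 and 231 and 137, 135, 211 and 157 RPM (0.37 ± 0.26, and -0.55). The study cites earlier work in which mouse TLR8 was unresponsive to nucleosides and single-stranded RNA. Tlr9, the DNA receptor, gave 0.54 ± 0.24 and -0.13. Unc93b1, which brings these receptors to endosomes, gave -0.14 ± 0.17 and -0.47. These values do not show that the levels were alike, and for Tlr7, Tlr8 and Tlr9 the sign depended on which WT libraries were used. Of 19 genes of ITAM adaptors and Fc receptors, 1 was called higher, the kinase gene Syk (0.62 ± 0.16, and 0.26), and 2 lower.

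Some G2 and M phase genes were lower with all WT libraries. Of 30 tested, 7 were called lower and none higher, beside 9.44% of all genes called lower. Of 27 S phase genes, 3 were called lower and none higher, a share near that of all genes. The medians of the G2 and M phase and S phase lists were -0.43 and -0.30 with all WT libraries and -0.04 and 0.07 against WT replicate 4. Mki67, which marks cycling cells, was at 111, 107, 116 and 78.8 RPM in WT and 86.7, 43.3, 44.3 and 78.3 RPM in the mutant, a log2 fold change of -0.76 ± 0.24 that was -0.38 against WT replicate 4. In Slc29a3-/- libraries it was at 251 ± 58.8 RPM, and the double mutant was lower than these, with a log2 fold change of -2.01 (adjusted p = 0.00013 by limma). Rrm2, a subunit of ribonucleotide reductase, gave -0.82 with all WT libraries and -0.18 against WT replicate 4. Against Slc29a3-/- libraries Rrm2 gave -2.06 (adjusted p = 0.00029 by limma). Between the 2 mutant genotypes, 1254 genes (11.9%) were called higher and 1105 (10.5%) lower in the double mutant. The other lists are given by their counts, beside 3.12% of all genes called higher and 9.44% lower. Of 15 genes of primary granules and myeloid progenitors, 3 were higher and 1 lower, and the 3 (Mpo, Elane and Ctsg, neutrophil granule proteases and peroxidase) fell to 0 calls without mutant replicate 4 and to 1 without any 1 of WT replicates 1 to 3 or mutant replicates 2 and 3. Of 24 monocyte transcription factor genes, 8 were lower and none higher, 1 of them, Id2, an inhibitor of helix-loop-helix factors, still by 1.5-fold against WT replicate 4 (-1.09 and -0.68). Of 20 replication-dependent histone genes, 2 were higher and 4 lower, of 16 complement and scavenger genes 1 and 3, of 14 surface TLR and coreceptor genes 1 and 1, and of 18 glycolysis genes 1 and 1. Of 16 integrin genes, 2 were lower and none higher. Of 17 cholesterol genes 1 was higher, of 18 ribosomal protein genes 1, and none was lower. None of 66 nuclear genes of the respiratory chain was called, and none of 5 genes that differ between C57BL/6 substrains.

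The same genotypes were compared in Ly6C low monocytes, where the WT libraries were divided in the same way, with barcodes 11 to 13 for replicates 1 to 3 and 35 for replicate 4. Both subsets may come from the same mice, so the Ly6C low libraries are not an independent set. There, 627 of 10317 genes (6.08%) were called higher and 1508 (14.6%) lower. Of the 329 genes called higher in Ly6C hi cells, 313 were tested in Ly6C low cells and 126 (40.3%) were called higher there, and of 888 lower genes tested 440 (49.5%) were called lower. Of the genes that were called, did not overlap and kept their fold against WT replicate 4, 24 of 54 tested were called higher and 82 of 191 lower in Ly6C low cells. Fos was at 3399, 2446 and 2870.2 RPM in WT Ly6C low replicates 1 to 3, 38.9 RPM in replicate 4 and 46.5, 75.8, 18.0 and 401 RPM in the mutant, which is the pattern of the Ly6C hi libraries.

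AY761185, 1700112E06Rik and Cndp2 were higher in Ly6C low cells as well. AY761185 was at 4.61, 4.32 and 3.30 and 0.077 RPM in WT and 49.0, 17.2, 88.3 and 110.5 RPM in the mutant (4.0, and 5.67 against WT Ly6C low replicate 4). 1700112E06Rik gave 2.86 and 2.94, and Cndp2 1.63 and 1.86. Hspa1a was at 8.05 to 34.0 RPM in WT and 11.1, 365, 13.7 and 2342 RPM in mutant Ly6C low replicates 1 to 4, so that 2 of the 4 were high and its difference was not called there. H2-Ab1 rose by 1.31 with all WT libraries but gave -0.17 against WT Ly6C low replicate 4, which was at 498 RPM. Pou2af1 (-1.28) and Mzb1 (-0.49) were not called in Ly6C low cells with all WT libraries. Against WT Ly6C low replicate 4 they gave -2.655 and -1.477. An interaction of genotype and subset was fitted over the 24 libraries, without pairing the subsets although they may share mice. In limma, 7 of 11042 genes passed at an adjusted p under 0.05. None of the genes named above was among them.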

How the data were processed

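RNA of sorted splenic monocytes was measured with an amplicon panel of 23930 genes in 24 libraries, of which 8 were compared. The authors deposited RPM values, the reads of each amplicon scaled to 1000000 per library, on mm10. Which of the aligners and counters named by the study and its labels wrote the table is not given in the sources used here. A value of 0.0001 stands for 0 reads and was read as 0, and 27 gene names that a spreadsheet had turned into dates were restored. Reads per library were inferred from the even steps between low values, and the 8 libraries had 12311037 to 14415814 reads.

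Genes that reached 1 RPM in 4 or more of the 12 Ly6C hi libraries were tested on log2(RPM + 1) by limma 3.58.1 with an intensity trend (R 4.3.3), with the 3 genotypes as groups and Benjamini-Hochberg adjustment. The contrast with WT replicate 4 alone came from the same fit with WT replicates 1 to 3 as a group of their own. Ly6C low libraries were fitted in the same way, and the difference between subsets was fitted over all 24 libraries. The script was tested on simulated data. Alternatives were scaling, filter, pseudocount, samples in the fit, a replicate block and leaving out each library.

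Named were the marked examples of each gene list, the 12 genes per direction with the largest change (mean of at least 10 RPM in the higher group, called, no overlap, and over 1.5-fold against WT replicate 4), the 6 per direction that lacked that last fold, up to 4 called members per list and direction, and the genes within 500 kb of Slc29a3 or Tlr7. The gene lists and the comparison were chosen with earlier results of these data known. Gene positions and promoters came from RefSeq (GRCm38.p6), with 23557 amplicons matched by name. Figures were drawn with matplotlib 3.10.9.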

Additional observations from a re-analysis of the deposited data

Results flagged for a closer look

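Within each group of 4 libraries, the highest and the lowest value of each of the 103 genes named in the text were compared with their nearest neighbour by Dixon's ratio. Of 206 such gene and group pairs, 63 had a library that stood apart. Chance gives about 1 in 20 only for independent genes chosen without regard to these values. Here some genes were named because their change depended on WT replicate 4, so the number is a description and not a test. WT replicate 4 was the library that stood apart in 50 of the 63 pairs. It was the lowest of the WT libraries for 32 genes: Alox15 (2.26 RPM), Ccl2 (2.57 RPM), Ccl3 (6.32 RPM), Cd14 (48.8 RPM), Cd3e (6.24 RPM), Cd3g (4.52 RPM), Dusp1 (51.6 RPM), Egr1 (5.54 RPM), Fos (145 RPM), Fosb (3.43 RPM), Gzma (54.2 RPM), Hspa1a (4.45 RPM), Hsph1 (86.5 RPM), Id1 (15.9 RPM), Ier2 (164 RPM), Ifng (1.01 RPM), Jun (22.3 RPM), Klk1 (5.38 RPM), Klrb1c (26.99 RPM), Nfkbia (274 RPM), Nfkbiz (126 RPM), Nr4a1 (409 RPM), Osm (4.13 RPM), Pim1 (311 RPM), Plk3 (5.23 RPM), Prg2 (9.91 RPM), Retnlg (23.5 RPM), Rgs1 (2.81 RPM), Rrm2 (76.8 RPM), Siglech (13.7 RPM), Thy1 (18.6 RPM) and Xist (0 RPM). It was the highest for 18 genes: Casp9 (12.2 RPM), Ccr2 (1783 RPM), Ciita (181 RPM), Clec2d (731 RPM), Ctsg (84.6 RPM), D730005E14Rik (7.57 RPM), Ddx3y (97.0 RPM), F630028O10Rik (56.4 RPM), H2-Ab1 (306 RPM), Icam1 (78.1 RPM), Lamp1 (1278 RPM), Lyz2 (29513 RPM), Mettl7a1 (41.1 RPM), Samhd1 (732 RPM), Taf2 (24.3 RPM), Tlr13 (142 RPM), Tlr8 (231 RPM) and Tlr9 (235 RPM). Of the other WT libraries, replicate 2 stood above the rest for Ctsd (1045 RPM) and replicate 3 for Rgl2 (23.3 RPM).

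Among the Slc29a3-/- Tlr7-/- libraries, replicate 1 stood above the others for Clec2d (905 RPM), Gzma (325 RPM), Ifit1 (69.3 RPM), Klrb1c (174 RPM), S1pr1 (9.94 RPM) and Slc4a1 (0.308 RPM), among which Gzma and Klrb1c are NK cell genes. The ratio sets a gap against the range of the group, so the gap itself can be small. For Ifit1 the other mutant libraries were at 57.2, 57.3 and 59.1 RPM, for Clec2d at 729.7, 734 and 746 RPM, and for Slc4a1 at 0 RPM, which allows a level of up to 0.244 RPM. Replicate 4 stood above the others for Ccl3 (134 RPM), Hsph1 (499.9 RPM), Il1b (421 RPM) and Jun (319 RPM), and below them for F630028O10Rik (31.4 RPM).

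The difference between genotypes was itself tested for a difference between Ly6C hi and Ly6C low monocytes, with the libraries of the subsets taken as unpaired. In limma, 7 of 11042 genes had an adjusted p under 0.05. The difference of the effect, Ly6C hi minus Ly6C low, was 5.90 on the log2 scale for S100a9, an abundant protein of neutrophils and Ly6C hi monocytes. In Ly6C hi cells, S100a9 was at 8887, 7905, 9037 and 7278 RPM in WT and 12485, 5048, 5188 and 14667 RPM in the mutant, and in Ly6C low cells at 499, 864, 394 and 23.0 and 8.40, 0, 2.68 and 8.63 RPM. The groups overlapped in Ly6C hi cells and did not in Ly6C low cells. The difference was 1.79 for the carbonyl reductase gene Cbr2, 1.84 for the dipeptidase gene Dpep3, -1.23 for the integrin gene Itgb3, -1.38 for Pdzk1ip1, -1.90 for the Fc receptor-like gene Fcrl5 and -2.06 for the epithelial adhesion gene Epcam. Pdzk1ip1, Fcrl5 and Dpep3 were below the filter on low values in Ly6C hi cells. With WT replicate 4 of each subset as the only WT library, an alternative chosen after the data were seen, none of the 7 and no other gene had an adjusted p under 0.05 in limma, and 573 had an unadjusted p under 0.05.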

How the results depend on the processing

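The counts of 329 genes higher and 997 lower were recomputed under each alternative. TMM scaling, RLE scaling, no filter on low values, a pseudocount of 0.1, a fit of the 8 libraries only, a fit of all 24 and limma without its trend gave 318 to 358 higher and 881 to 1049 lower. With genes of at least 10 RPM on average, 238 were higher and 519 lower, from fewer genes tested. With an adjusted p, 33 and 117 passed. Against WT replicate 4 alone, 128 and 240 passed, from fewer samples. Leaving out 1 library at a time gave 235 to 599 higher genes, the most without WT replicate 4, and 726 to 1341 lower genes, the most without mutant replicate 1. With the replicate number as a block, 317 and 1011 passed. WT and mutant Ly6C hi libraries of the same number did not deviate together (r of -0.18 to 0.08), so the numbers do not pair WT with mutant libraries. No WT library correlated best with the mutant library of its own number.

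Of the 103 genes named, 87 were called with all WT libraries. Among these 87, 16 reversed their sign against WT replicate 4 alone, to Ccl2 0.00049, Ccl3 2.07, Cd14 0.32, Ciita -0.22, Dusp1 0.82, Egr1 1.25, F630028O10Rik -0.14, Fos 0.65, Ifng 0.28, Jun 1.53, Nfkbia 0.17, Nfkbiz 0.12, Osm 0.60, Rgs1 1.03, Siglech 0.34 and Tlr13 -0.33 on the log2 scale. A further 50 were no longer called, 1 became called and 36 kept their status. No other alternative reversed a named gene that was called with all WT libraries. Sign changes of genes that stayed uncalled are left out of these counts. Against WT replicate 4 alone, Nr4a1 went from -0.68 to 0.91 and Il1b from -0.54 to 0.21. Without WT replicate 4, Ccr2 went from -0.09 to 0.47 and Dnajb1 from 0.15 to -0.04. Count-based tests of genotype were not run on recovered reads, because the file's mark for 0 reads kept the unit from being accepted as whole reads. Recovered reads were used to describe depth and the chi-square between libraries. The lone WT replicate 4 was assumed to vary like the other groups. Each value rests on 1 amplicon per gene, and levels under 0.244 RPM could not be told from 0 at this depth.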
